A study of Mus musculus with 6 samples.

Results

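The expression of 10 genes was examined in fully-grown oocytes (FGOs) of WT and Lsm14b-KO mice at the germinal vesicle (GV) stage, that is, arrested in prophase of meiosis I. These genes encode the cytosolic heat shock chaperones and their transcription factor: Hspa8, Hsph1, Hspa4, Hspa4l, Bag3, Hsp90aa1, Hsp90ab1, Dnaja1, Dnajb1 and Hsf1. They were 10 of the 24255 genes listed. The family was picked from the values below, because Hsph1 and Hspa8 were higher in the Lsm14b-KO libraries, so the difference between the genotypes is given for these genes as a description. They were part of the fit over all genes, but no p-value is given for them, and nothing is drawn from which of them passed its threshold. Both genotypes came from ovaries of C57BL/6J females that had received 5 IU of the gonadotropin PMSG, which makes follicles grow, and the age of the females used for these libraries is not given in the sources used here. Lsm14b-KO females were homozygous for Lsm14b tm1a(KOMP)Mbp, a reporter-tagged insertion carried by every cell of the body, whereas WT females carried no insertion. Each library was made from 20 oocytes by Smart-seq2, a procedure that amplifies the cDNA of a few cells, and there were 3 libraries per genotype. Expression is given as FPKM, the number of sequenced fragments of a gene relative to transcript length and to the size of the library.

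Heat shock proteins bind unfolded segments of other proteins and let them fold. HSP70 proteins, of which HSC70 (Hspa8) is the constitutive cytosolic form, work in a cycle: a J-domain protein such as DNAJA1 or DNAJB1 delivers the client and starts ATP hydrolysis, and a nucleotide exchange factor such as HSPH1 (HSP110) or BAG3 releases it. HSP90 proteins (Hsp90aa1, Hsp90ab1) act later on partly folded kinases and receptors. HSF1 switches these genes on in heat or proteotoxic stress by binding heat shock elements, inverted repeats of the short unit GAA, and is known in the mouse oocyte as a maternal factor. FGOs make almost no new RNA and rely largely on stored transcripts.

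To show where the letters of heat shock elements lie in these genes, RefSeq promoter windows of GRCm38.p6, from 250 bases before to 50 bases after each annotated start, were searched on both strands. The short form with 2 units reads TTCNNGAA or GAANNTTC, and the long form with 3 alternating units reads GAANNTTCNNGAA or TTCNNGAANNTTC, so that each long match also holds 2 short ones. Windows were found for 6 members (Hsph1, Hspa4, Hspa4l, Dnaja1, Dnajb1 and Bag3), and none was used for Hspa8, Hsp90aa1, Hsp90ab1 or Hsf1. The 4 stretches found are printed 5′ to 3′ on the strand of the gene, with the matching letters in capitals, because they are the only matches in these windows.
Hsph1, chr5:149636358-149636373, minus strand: atctTTCTCGAAggct
Hsph1, chr5:149636284-149636304, minus strand: cagaTTCTGGAAAGTTCtcct
Dnaja1, chr4:40722340-40722355, plus strand: tctaGAAAATTCtacg
Bag3, chr7:128523621-128523632, plus strand: accaGAAGTTTC

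The first Hsph1 stretch began at -33 from the annotated start at 149636336 and at -54 from a second start at 149636315. The second Hsph1 stretch, the only long form among the members, lay behind both starts, at 36 and 15. The Dnaja1 match began at -124 from 1 of its 3 starts (40722468), and the Bag3 match at 42, behind its start at 128523583. In all, 3 of 6 members held a short form and 1 of 6 the long one. Of all 27025 genes with a window, 17.0% held the short form and 0.662% the long one, and of the 61 other heat shock and co-chaperone genes with a window 16 and 4 did. No match was found for Dnajb1, Hspa4 or Hspa4l, which says only that these letters are not in these windows. A match is a string of letters, and binding was not measured.

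**Figure D1:**
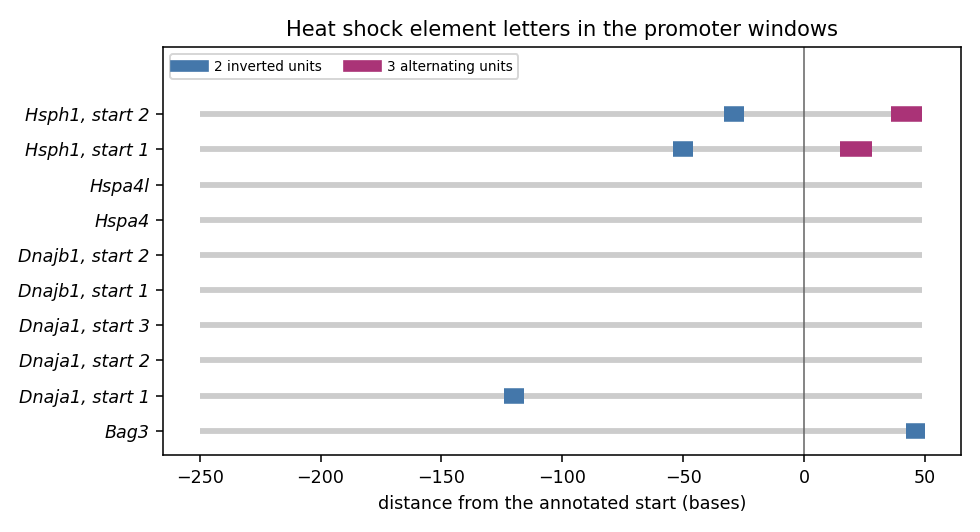
Promoter windows of the 6 members with a RefSeq entry, 1 line per annotated start, against the distance from that start in bases (grey bars, from 250 bases before to 50 after). Blue marks the 2-unit form and purple the 3-unit form, so that Hsph1 shows 1 blue and 1 purple block in each of its windows, Dnaja1 1 blue block in 1 of 3 windows, Bag3 1 blue block behind the start, and the others none.

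The libraries were checked first. Lsm14b, the disrupted gene, had 2.77, 3.98 and 1.72 FPKM in WT replicates 1, 2 and 3, and was listed at 0, 0 and 0.10 in the Lsm14b-KO libraries. Its difference was -1.85 on the log2(FPKM + 1) scale (adjusted p 0.0038 in limma), and the exact two-sided permutation test gave 0.1, the smallest p that 3 libraries against 3 allow. The sums of FPKM differed, from 1141324 to 1244182 in WT libraries against 1029728, 564671 and 676656 in Lsm14b-KO replicates 1, 2 and 3. The relative depth was the commonest ratio of values between WT replicate 1 (set to 1) and a library, over genes very low in both. It was at most 1.14 in WT libraries and 1.33, 1.95 and 2.17 in the Lsm14b-KO libraries. In these last 3, only 167 of 331, 118 of 323 and 115 of 367 such genes lay at that ratio, so it is an estimate. In both measures Lsm14b-KO replicate 1 stood nearer to the WT libraries, and the members are also described in it alone. Of 10 oocyte marker genes, which include Gdf9, Bmp15 and the Zp genes, all reached 1 FPKM, with a sum of 6979 to 8982 in WT and 6781 to 9021 in Lsm14b-KO libraries, although Nobox rose (log2 difference 2.25, adjusted p 0.0064 in limma) and Oosp1 was lower without overlap (log2 difference -0.71, adjusted p 0.191). Of 11 granulosa and cumulus cell markers 3 reached 1 FPKM, with a sum of 9.41 to 13.2 in WT and 5.79 to 9.38 in Lsm14b-KO libraries. The other 8 stayed below it, and of these Amh, Foxl2, Inhba and Ptx3 were at 0 in all 6. Kitl, also below 1 FPKM, was higher in the Lsm14b-KO libraries without overlap (0.402 to 0.559 against 0.097 to 0.383 FPKM). The 3 that reached 1 FPKM did not move together: Cyp19a1, which makes up most of the sum, fell (adjusted p 0.0426 in limma), whereas Fshr and Inha had log2 differences of 0.73 and 0.38 (adjusted p 0.0923 and 0.301). Of 6 red blood cell genes all were at 0. The number of granulosa cells and their RNA per cell cannot be told apart in such libraries, and their part in the results was not tested.

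In WT FGOs these genes spanned the whole range of expression, and 1 HSP90 gene outweighed all the rest. Hsp90aa1, the inducible HSP90 alpha, had 572, 557 and 646 FPKM in WT replicates 1, 2 and 3 (592 ± 47.3, SD, n = 3), and only 257 of the 12466 genes above 0 in WT had a higher mean. It made up 93.1% to 93.7% of the summed FPKM of the 10 genes. Dnaja1 (11.4 FPKM), Hspa8 (11.2), Hsp90ab1 (8.08), Hsph1 (5.05) and Dnajb1 (3.75) followed, and Hspa4l (0.724), Hsf1 (0.682) and Hspa4 (0.541) stayed below 1 FPKM on average. Bag3 was listed at 0 in 5 of 6 libraries and at 0.105 in WT replicate 3. Of the 9 neighbouring pairs in this order 5 did not overlap between their WT ranges, whereas Dnaja1 and Hspa8, Hspa8 and Hsp90ab1, Hspa4l and Hsf1, and Hsf1 and Hspa4 did. The constitutive HSP90 beta (Hsp90ab1) was thus far below its inducible partner in these oocytes, with a ratio of Hsp90aa1 to Hsp90ab1 of 67.0, 101 and 63.2 in WT and 62.2, 48.6 and 75.7 in Lsm14b-KO libraries.

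**Figure D2:**
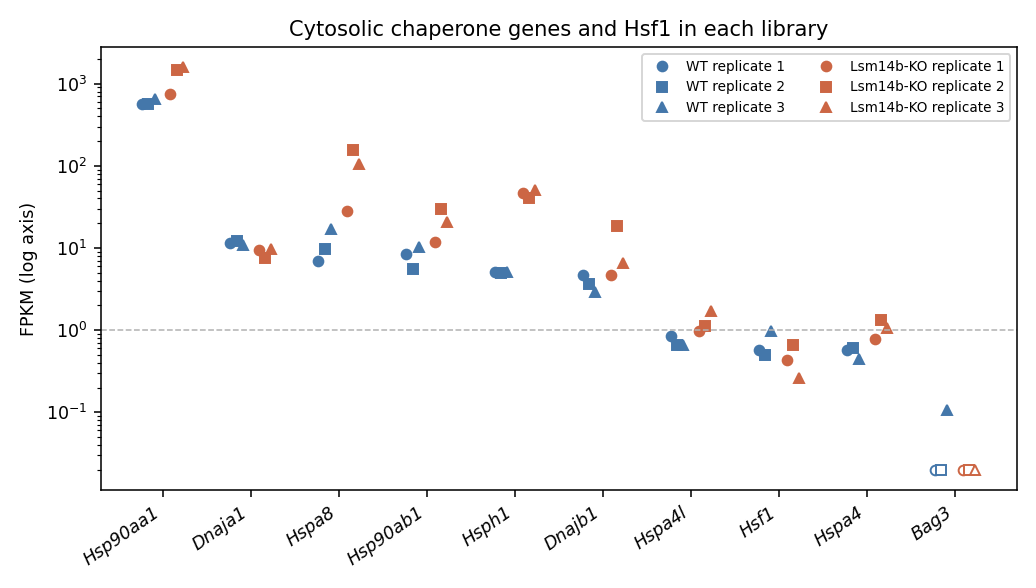
FPKM (log axis) of the 10 genes in each of the 6 libraries, ordered by the WT mean, with WT in blue, Lsm14b-KO in red and the marker shape giving the replicate number. Open markers at the bottom stand for a listed value of 0, the dashed line is the minimum of 1 FPKM used for testing, and the Lsm14b-KO markers of Hsph1 lie together while those of Hspa8 and Dnajb1 are spread out.

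Of the 10 genes 8 reached 1 FPKM in at least 1 library, the limit for testing, and Hsf1 and Bag3 did not. Hspa4 and Hspa4l reached it only in Lsm14b-KO libraries, so that they could enter only by being high there. Among these 8, 7 had all Lsm14b-KO values above all WT values, a pattern of 19.1% of all 6398 tested genes, and Dnaja1 had all values below, as did 26.0% of tested genes. Hsph1 and Hspa8 passed an adjusted p under 0.05 in limma with a higher level (6.38% of tested genes did) and no member did with a lower level (15.2% of tested genes). These counts only restate how the family was picked. The median log2 difference of the 8 genes was 1.01, and that of all tested genes was -0.08, which partly restates that choice as well. The 8 differences ran from -0.33 (Dnaja1) to 2.95 (Hsph1), so the family did not shift as a block.

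Hspa8 (chr9:40800984-40810087, plus strand, GRCm38) encodes HSC70, the HSP70 that handles most routine folding and uncoats clathrin vesicles. Its level was 6.85, 9.82 and 16.8 FPKM in WT and 28.1, 155 and 106 FPKM in Lsm14b-KO libraries, in the order of replicates 1 to 3 used throughout. The groups did not overlap, but Lsm14b-KO replicate 1 was far nearer to the highest WT library than to the other two. The means were 11.2 ± 5.13 and 96.2 ± 63.8 FPKM (SD, n = 3), a ratio of 8.61 and a log2(FPKM + 1) difference of 2.77 (SE 0.62). This was the largest SE of any member, and the log2 difference lay between 2.28 and 3.49 over the fits that left out 1 library. Snord14c, Snord14d and Snord14e, 3 snoRNA genes, lie inside Hspa8, and 6 other annotated transcripts are at least 95% identical to it over 200 nt or more. None of these copies has a line in the deposited table, so reads that fit both cannot be separated here. The inducible cytosolic HSP70 genes gave almost nothing: Hspa1a was listed at 0 in all 6 libraries, and Hspa1b at 0 in 4, with 0.051 FPKM in replicate 2 and 0.091 FPKM in replicate 3 of the Lsm14b-KO group. These copies are near-identical to each other, so a low value can also come from how shared reads were assigned.

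Nucleotide exchange factors follow, and among them Hsph1 stood apart. Hsph1 (chr5:149614287-149636376, minus strand) encodes HSP110, a large HSP70 relative that resets HSP70 and helps to dissolve aggregates. Its level was 5.08, 4.93 and 5.16 FPKM in WT and 46.9, 40.5 and 50.02 FPKM in Lsm14b-KO libraries. All 3 Lsm14b-KO libraries, replicate 1 included, were high and close together. The means were 5.05 ± 0.115 and 45.8 ± 4.88 FPKM (SD, n = 3), a ratio of 9.06 and a log2 difference of 2.95 (SE 0.23). It has no copy of that identity and length among the annotated transcripts and overlaps no other gene. Among the 10 genes Hsph1 ranked 5 in every WT library, and 2, 3 and 3 in the Lsm14b-KO libraries.

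The closest relatives of HSPH1 had low levels and small differences. Hspa4 (APG-2) had 0.574, 0.604 and 0.446 FPKM in WT and 0.778, 1.33 and 1.06 FPKM in Lsm14b-KO libraries, a log2 difference of 0.41 (SE 0.20). Hspa4l (APG-1), known for its role in the testis, had 0.838, 0.668 and 0.666 FPKM in WT and 0.975, 1.13 and 1.72 FPKM in Lsm14b-KO libraries, a log2 difference of 0.39 (SE 0.20). Both were higher in all Lsm14b-KO libraries, by ratios of 1.95 and 1.76 between the means, and the pseudocount of 1 makes the log2 difference of genes at this level smaller than the log2 of the ratio. The log2 differences of Hspa4 and Hspa4l were 0.93 and 0.78 at a pseudocount of 0.01, and 0.22 and 0.24 with the length and GC correction. Within the HSP110 group the log2 differences thus ran from 0.39 to 2.95. Bag3, which links HSP70 to autophagy and is one of the most heat-inducible co-chaperones, was listed at 0 in all 3 Lsm14b-KO libraries.

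Both HSP90 genes were higher in every Lsm14b-KO library than in any WT library, and replicate 1 was the lowest of the 3. Hsp90aa1 (chr12:110690605-110702728, minus strand) had a level of 744, 1463 and 1572 FPKM in Lsm14b-KO libraries, against at most 646 in WT. The log2 difference was 1.02 (SE 0.36), a ratio of 2.13 between the means. Hsp90ab1 (chr17:45567775-45573271, minus strand) had 8.53, 5.50 and 10.2 FPKM in WT and 11.97, 30.1 and 20.8 FPKM in Lsm14b-KO libraries, a log2 difference of 1.22 (SE 0.38) and a ratio of 2.59. Without Lsm14b-KO replicate 1 the log2 differences of Hsp90aa1 and Hsp90ab1 were 1.36 and 1.56. In absolute FPKM the gain was larger for Hsp90aa1 than for the other 9 genes together. Even so its share of the summed FPKM was lower in all Lsm14b-KO libraries, at 87.8%, 85.2% and 88.9%. Hsp90aa1 has 3 near-identical transcripts elsewhere and Hsp90ab1 none.

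The 2 J-domain genes went opposite ways. Dnaja1 (chr4:40722150-40737149, plus strand), a type I J-domain protein that hands folding clients to HSC70, had 11.4, 12.1 and 10.7 FPKM in WT and 9.56, 7.45 and 9.80 FPKM in Lsm14b-KO libraries. It was the single tested member that was lower in all Lsm14b-KO libraries, with a log2 difference of -0.33 (SE 0.23), though it turned to 0.31 when values were scaled to TPM. Dnaja1 overlaps Smu1 on the opposite strand and has 3 near-identical transcripts elsewhere, so part of its reads may belong to other genes. Dnajb1 (chr8:83608193-83612653, plus strand), the type II partner of HSP70 that HSF1 induces strongly, had 4.68, 3.65 and 2.94 FPKM in WT and 4.74, 18.4 and 6.61 FPKM in Lsm14b-KO libraries. Replicate 1 was level with WT replicate 1, and the log2 difference of 1.01 (SE 0.43) was 0.49 without Lsm14b-KO replicate 2. The ratio of Dnaja1 to Dnajb1 was 2.43, 3.32 and 3.65 in WT and 2.02, 0.406 and 1.48 in Lsm14b-KO libraries, and that of Hspa8 to Dnaja1 was 0.602, 0.810 and 1.57 in WT and 2.93, 20.7 and 10.8 in Lsm14b-KO libraries. In neither ratio did the groups overlap, which follows from the levels of these genes, each without overlap, and adds nothing to them. The transcript of the HSP70 was thus in excess of that of DNAJA1 in all 3 Lsm14b-KO libraries and in 1 of 3 WT libraries.

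Hsf1 (chr15:76477422-76501913, plus strand), the heat shock transcription factor itself, had 0.574, 0.502 and 0.972 FPKM in WT and 0.430, 0.663 and 0.263 FPKM in Lsm14b-KO libraries. The groups overlapped (0.682 ± 0.253 and 0.452 ± 0.201 FPKM, SD, n = 3), and the gene was too low to be tested. The Lsm14b-KO values of Hsf1 lay within or below the range of the WT libraries. HSF1 is known to be controlled mainly at the protein level, by assembly and phosphorylation, which mRNA does not show.

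The members differed in how much of the change was present in Lsm14b-KO replicate 1. The shift of a gene in replicate 1 was its log2(FPKM + 1) minus the WT mean, and it was set beside the mean shift of replicates 2 and 3. For Hsph1 replicate 1 showed 102% of the shift of the other two libraries (2.98 against 2.93). For Hspa8 it showed 38.4% (1.34 against 3.49), for Hsp90ab1 35.4%, for Hsp90aa1 24.5% and for Dnajb1 21.1%. Hspa4 and Hspa4l showed 41.0% and 40.8%, and Dnaja1 61.5%. Among all 2015 tested genes with a shift of at least 1, in either direction, in replicates 2 and 3, the median was 38.4% (quartiles 13.4% and 67.0%). Among the 408 genes that passed the threshold with a higher level it was 74.2% (quartiles 49.3% and 99.0%). Hsph1 lay above the upper quartile of both sets, whereas Hspa8, Hsp90ab1, Hsp90aa1 and Dnajb1 lay within the quartiles of the first and below the lower quartile of the second. The first set was chosen by a large shift in replicates 2 and 3, which favours a low percentage. The second was chosen by a test that favours libraries that agree, which favours a high one. The place of a gene in either set is therefore only a description. The 2 genes that led to the choice of this family thus had different profiles over the 3 libraries. The lower FPKM sums and greater depth of replicates 2 and 3 went along with the larger shifts, and their part in the result was not tested.

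**Figure D3:**
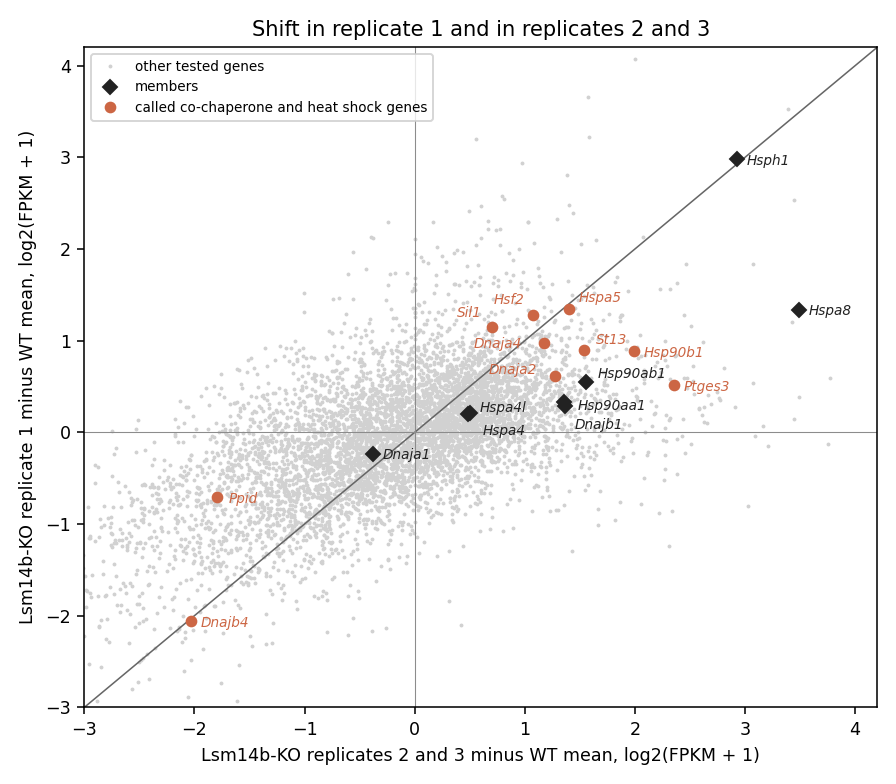
Shift of each tested gene in Lsm14b-KO replicate 1 (vertical axis) against the mean shift in replicates 2 and 3 (horizontal axis), both as log2(FPKM + 1) minus the WT mean, with members as black diamonds, other heat shock and co-chaperone genes past the threshold as red points and all other tested genes in grey. The diagonal marks equal shifts; Hsph1 sits on it, whereas Hspa8, Hsp90aa1, Hsp90ab1 and Dnajb1 lie below it, and points beyond the axes are not drawn.

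Other genes were then searched for profiles over the 6 libraries like those of Hsph1 and Hspa8. Likeness was the root mean square difference of log2(FPKM + 1) after removal of each gene's mean, over 2560 tested genes with a mean of at least 5 FPKM. Nearest to Hsph1 was Malat1 (0.31), a nuclear long noncoding RNA, with 4.46, 4.87 and 4.52 FPKM in WT and 63.8, 64.4 and 52.3 FPKM in Lsm14b-KO libraries. Ythdf2 (0.51), which encodes a reader of methylated adenosine in RNA, and Kdm1b (0.52), a histone demethylase of the growing oocyte, came next. Nearest to Hspa8 was Eif4a1 (0.37), the translation initiation helicase, with 1.26, 0.96 and 2.43 FPKM in WT and 2.59, 25.1 and 15.6 FPKM in Lsm14b-KO libraries. Pfn1 (0.44), the actin-binding profilin, and Ftl1 (0.47), the ferritin light chain, followed. No member of the family was among the 3 nearest genes of either. Hspa4, Hspa4l, Hsf1 and Bag3 lay below 5 FPKM and were not searched. The measure keeps the size of the difference between the genotypes, for which Hsph1 and Hspa8 were picked. Their log2 differences were 2.95 and 2.77, and the next largest among the members was 1.22 (Hsp90ab1). The absence of members thus follows from the choice and says nothing more about them.

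The other genes of the chaperone network were then tested, as a list of 72 symbols of which 36 reached 1 FPKM. In limma with Benjamini-Hochberg adjustment over all 6398 tested genes 8 rose and 2 fell, against 6.38% and 15.2% of all tested genes. Their median log2 difference was 0.41, and that of all tested genes was -0.08. Several of these genes passed the limit only through Lsm14b-KO libraries, Hsf2 and Dnaja4 among them, so the counts are not read as a property of the list. Without Lsm14b-KO replicate 1 there were 14 that rose and 5 that fell, against 18.3% and 28.7% of all genes tested in that fit. Without replicate 3 of the Lsm14b-KO libraries limma called 0 higher (9 at an unadjusted p under 0.05) and 1 (Dnajb4) lower, against 0.600% and 4.47% of all genes tested in that fit. Without a filter on low values the calls of Hsp90b1, Dnaja2, Sil1, Ptges3 and Ppid were lost (adjusted p 0.0579, 0.0659, 0.105, 0.104 and 0.0614).

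Of 8 HSP70, HSP90 and chaperonin genes of the organelles 6 were tested and 2 rose, both of the endoplasmic reticulum. Hspa5 (BiP), the HSP70 of that compartment, had 10.3, 8.82 and 13.3 FPKM in WT and 28.6, 31.3 and 28.4 FPKM in Lsm14b-KO libraries, a log2 difference of 1.38 (SE 0.25, adjusted p 0.0108 in limma). It rose by the same measure in replicate 1 as in the others (95.8% of the shift), as Hsph1 did. Hsp90b1 (GRP94), the HSP90 of the reticulum, had 1.41, 0.881 and 1.56 FPKM in WT and 3.18, 10.3 and 6.15 FPKM in Lsm14b-KO libraries (log2 difference 1.62, adjusted p 0.0196 in limma). The call of Hspa5 was lost without WT replicate 1, WT replicate 2 or Lsm14b-KO replicate 3 (adjusted p up to 0.0684), and that of Hsp90b1 without any single WT library or Lsm14b-KO replicate 3 (up to 0.0832). Hspa13, of the same compartment, did not pass the threshold (adjusted p 0.233), nor did its J-domain proteins Dnajb9 (0.0688) and Dnajb11 (0.532). The mitochondrial chaperonin Hspd1 had a log2 difference of 0.97 and an adjusted p of 0.0561, and it passed the threshold without Lsm14b-KO replicate 1 (0.00463), under TPM scaling (0.0482), under median scaling (0.0388) and with the length and GC correction (0.0471). Its partner Hspe1 had a log2 difference of -0.27 (adjusted p 0.609). Sil1, the exchange factor of BiP, had 4.39, 3.37 and 2.38 FPKM in WT and 8.55, 6.31 and 5.71 FPKM in Lsm14b-KO libraries, with an adjusted p of 0.0496 in limma that lost the threshold in 5 of 6 fits without 1 library (all but that without Lsm14b-KO replicate 1, up to 0.155). The call of Sil1 was also lost at a pseudocount of 0.1 or 0.01 (0.0563 and 0.0654) and without the intensity trend (0.0539), and its log2 difference of 0.85 was 1.43 under TPM scaling.

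Among the J-domain proteins the most abundant gene moved against Hspa8. Dnajb4, a close relative of Dnajb1, fell from 798, 687 and 819 FPKM in WT to 183, 186 and 188 FPKM in Lsm14b-KO libraries, a log2 difference of -2.04 (SE 0.27, adjusted p 0.00328 in limma), and it was past the threshold in all 16 alternatives, though the log2 difference was -1.35 under TPM scaling and -1.23 under quantile normalization. In WT FGOs Dnajb4 exceeded Dnajb1 171, 188 and 279 times, and in Lsm14b-KO FGOs 38.7, 10.1 and 28.4 times. That these ratios did not overlap follows from the lower Dnajb4 and the higher Dnajb1, each without overlap. Dnaja2, a relative of Dnaja1, had 12.2, 12.4 and 14.7 FPKM in WT and 20.6, 33.2 and 32.7 FPKM in Lsm14b-KO libraries (log2 difference 1.05, or 1.72 under TPM scaling, adjusted p 0.0351 in limma). Dnaja4, which could enter the test only through its Lsm14b-KO values, rose from between 0.446 and 0.805 FPKM to between 2.14 and 2.64 FPKM (log2 difference 1.11, or 2.04 at a pseudocount of 0.01, adjusted p 0.0081). It overlaps Wdr61 on the opposite strand and shares 1581 nt with it, so part of the reads of Dnaja4 may belong to Wdr61. Wdr61 had 2.64, 0 and 1.77 FPKM in WT and 11.6, 1.89 and 3.96 FPKM in Lsm14b-KO libraries. Dnaja3, the mitochondrial type A protein, overlapped between the groups (adjusted p 0.12). The type A genes thus differed: Dnaja2 and Dnaja4 were higher in every Lsm14b-KO library, and Dnaja1 was lower on the FPKM scale but not under TPM scaling. The call of Dnaja2 was lost when any library other than Lsm14b-KO replicate 1 was left out (adjusted p up to 0.134), and that of Dnaja4 without Lsm14b-KO replicate 3 (0.0535).

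**Figure D4:**
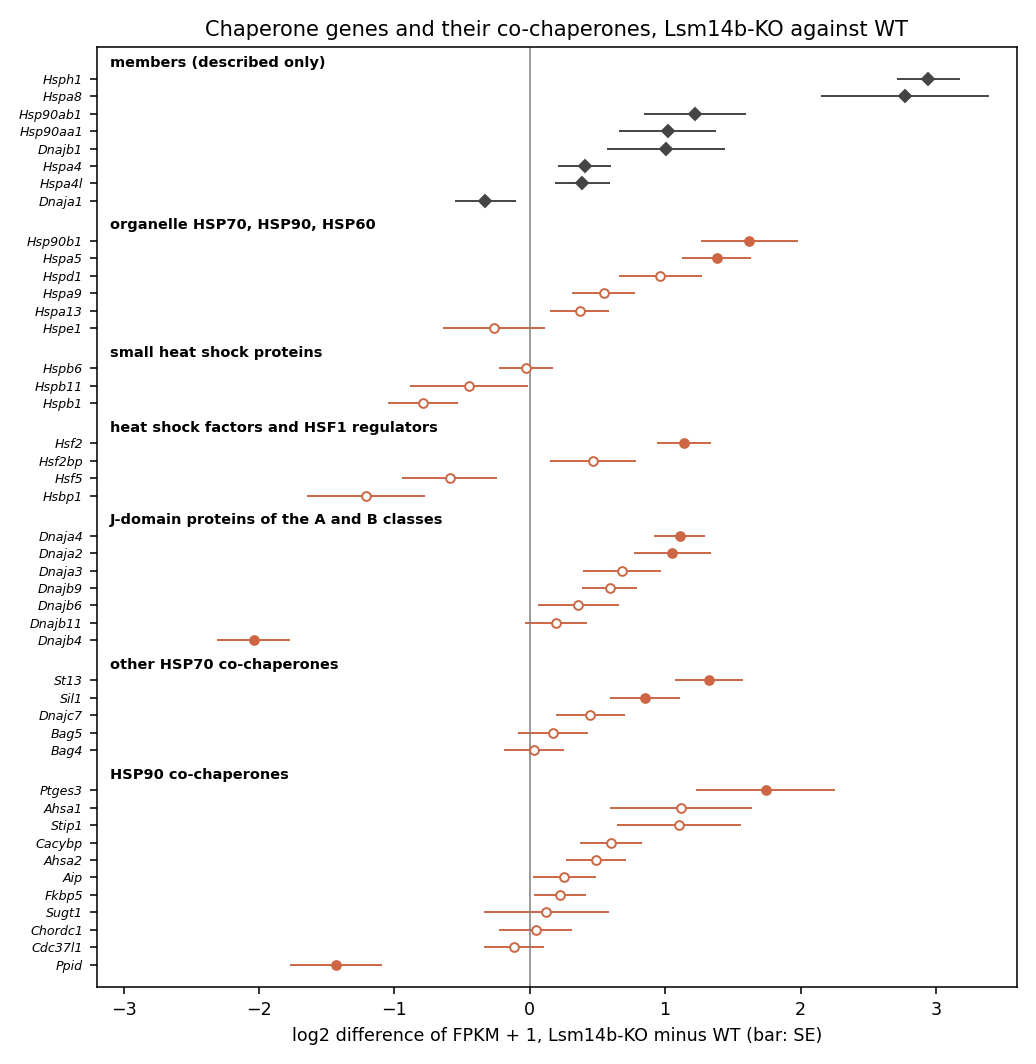
Difference between the genotypes on the log2(FPKM + 1) scale (Lsm14b-KO minus WT, bar: SE, 3 libraries per group) for the 8 members above 1 FPKM (black diamonds, given as a description) and the 36 tested genes of the related lists (red). Filled red points passed an adjusted p under 0.05 in limma, which 8 did to the right of 0 and 2 (Dnajb4 and Ppid) to the left, while Hsph1 and Hspa8 lie farthest to the right.

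The co-chaperones that bind HSP90 or couple it to HSP70 went in both directions. Ptges3 (p23), which holds HSP90 in its closed state, had 75.9, 84.4 and 96.7 FPKM in WT and 123, 457 and 423 FPKM in Lsm14b-KO libraries, a log2 difference of 1.74 (SE 0.51, adjusted p 0.0459 in limma). Its shift in replicate 1 was 22.0% of that in replicates 2 and 3, close to the 24.5% of Hsp90aa1. Ppid (cyclophilin 40), an HSP90-bound prolyl isomerase, fell from 18.8, 18.6 and 15.8 FPKM to 10.4, 4.06 and 4.73 FPKM (log2 difference -1.43, adjusted p 0.0246). St13 (HIP), which holds HSP70 in its client-bound state, rose from between 3.04 and 3.56 FPKM to between 6.93 and 12.1 FPKM (log2 difference 1.33, adjusted p 0.0119). Stip1 (HOP), the bridge between HSP70 and HSP90, had 0.922, 0.576 and 1.40 FPKM in WT and 0.889, 4.66 and 5.74 FPKM in Lsm14b-KO libraries, with an adjusted p of 0.114, or 0.000878 without Lsm14b-KO replicate 1. Stub1 (CHIP) and Cdc37, which leads kinases to HSP90, stayed below 1 FPKM in all 6 libraries. When any library other than Lsm14b-KO replicate 1 was left out, the call of Ptges3 was lost (adjusted p up to 0.163), as it was at a pseudocount of 0.01 (0.0539). That of Ppid was lost without any WT library or Lsm14b-KO replicate 3 (up to 0.107), as was that of St13 (up to 0.0601), and under TPM scaling the log2 difference of Ppid was -0.82 (adjusted p 0.0527). Ppid has 5 near-identical transcripts elsewhere and Ptges3 1.

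Of the remaining lists Hsf2 was the gene that passed the threshold. Its list held 6 heat shock factors and HSF1 regulators, of which 4 were tested. In that list Hsbp1 was lower without overlap but did not pass (log2 difference -1.21, adjusted p 0.0817 in limma). Hsf2, another heat shock factor with a role in meiosis, which could enter the test only through its Lsm14b-KO values, rose from between 0.373 and 0.640 FPKM to 2.56, 1.81 and 2.40 FPKM (log2 difference 1.14, or 2.25 at a pseudocount of 0.01, adjusted p 0.00822 in limma). Its call was lost only when Lsm14b-KO replicate 3 was left out (0.0549). Of 10 small heat shock protein genes 3 were tested and none passed the threshold. Hspb1 (HSP25), a classical heat shock target, had 2.01, 2.08 and 3.06 FPKM in WT and 1.48, 0.411 and 1.08 FPKM in Lsm14b-KO libraries, a log2 difference of -0.79 (adjusted p 0.0639). It was -0.33 (adjusted p 0.325) with the length and GC correction, -0.43 under TPM scaling, -1.41 at a pseudocount of 0.01, and -0.97 (adjusted p 0.0152) without Lsm14b-KO replicate 1, and 2 near-identical transcripts exist elsewhere. Of 10 immediate early genes, which rise within minutes in cells disturbed during isolation, 1 (Dusp1) was tested, with a log2 difference of -0.43 (adjusted p 0.131), and their summed level was 1.44 to 2.85 FPKM in WT and 1.41 to 1.72 FPKM in Lsm14b-KO libraries. Because FGOs make almost no new RNA, these levels cannot show whether the oocytes were disturbed. In the Lsm14b-KO libraries the mean of Hspa8 was 8.61 times and that of Hsph1 9.06 times the WT mean. Hspa8 encodes the constitutive form, as stated above. Among the genes described above as inducible or as classical heat shock targets, the directions differed. Hspa1a and Bag3 were at 0 in the Lsm14b-KO libraries, but Hspa1a was also at 0 in all WT libraries, and Bag3 in WT replicates 1 and 2. Hspb1 was below every WT library without passing the threshold (adjusted p 0.0639 in limma), whereas Hsp90aa1 and Dnajb1 were above every WT library. The cause was not tested.

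The scale on which libraries are compared moved the size of these differences. Under TPM scaling, quantile normalization, median scaling and a correction for transcript length and GC content the median of all tested genes shifted by 0.48, 0.14, 0.18 and 0.18, and the share of calls that were higher in Lsm14b-KO libraries went from 29.5% to 63.2%, 42.4%, 48.1% and 45.2%. The median of the 8 members minus that of all tested genes was 1.09 on the FPKM scale and 1.26, 1.33, 1.16 and 0.86 under these scalings. The 8 include Hsph1 and Hspa8, picked for their rise, and Hspa4 and Hspa4l, which entered only by high Lsm14b-KO values. This difference of medians thus partly restates how the family was picked, under every scaling. Under TPM scaling the log2 differences of Hsp90aa1, Hsp90ab1 and Dnajb1 were 1.71, 1.87 and 1.62. As a share of each library, which is the TPM scale, the 10 genes held 0.0490%, 0.0508% and 0.0608% of the summed FPKM in WT and 0.0823%, 0.304% and 0.261% in Lsm14b-KO libraries. Hspa8 held 1.12% to 2.43% of that family sum in WT and 3.31% to 8.997% in Lsm14b-KO libraries, and Hsph1 0.743% to 0.832% and 2.36% to 5.53%, without overlap in either. The family sum is mostly Hsp90aa1, so these shares mainly set each gene beside Hsp90aa1 of the same library. Hsph1 and Hspa8 were picked for their rise and had larger log2 differences than Hsp90aa1, so their larger shares only restate that choice. The part of scaling in the result was not tested.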

How the data were processed

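The 6 RNA-Seq libraries, 3 per genotype, were grouped by title and genotype label. Per the submitters' notes, reads were aligned to mm10 with TopHat2 (2.0.13), and the authors computed the deposited FPKM values with Cufflinks (2.2.1). The annotation and strandedness are not given in the sources used here, and the sources name different library kits. The table also holds 3 columns of the authors' own comparison (log2 fold change, p and q), which were not used. It holds no read counts, so only relative depth could be estimated and no count model was fitted. The labels do not say whether the libraries came from separate animals, so p-values measure only the spread between these libraries, which may be technical.

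Genes that reached 1 FPKM in any library were tested on log2(FPKM + 1) with limma 3.58.1 (R 4.3.3, intensity trend, genotype as the only term), two-sided, with Benjamini-Hochberg adjustment over 6398 genes. This scale understates the change of low genes. The fit was tested on simulated data. A gene listed at 0 can be a failed estimate. A spreadsheet had turned 27 symbols into dates, and none is a member. Members, lists and tests were chosen with earlier results of these data known. Named were the members, Lsm14b, list genes past the threshold (at most 12), Hspa1a, Hspa1b, Hspb1, Hsf2, Hspa5, Hsp90b1, Hspd1, Stip1, Stub1, Cdc37 and Ptges3, and the 3 nearest profiles of Hsph1 and Hspa8. Hspe1, Hspa13, Hsbp1, Dnajb9, Dnajb11, Dnaja3, Dusp1, Nobox, Oosp1, Cyp19a1, Fshr, Inha, Kitl, Amh, Foxl2, Inhba and Ptx3 were named after their values were seen. Gene positions came from GENCODE vM21 (GRCm38, the assembly of mm10), and copies were searched with blastn 2.17.0 (95% identity over 200 nt). Protein sequences were not used here.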

Additional observations from a re-analysis of the deposited data

How the results depend on the processing

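Lsm14b stayed lower and past the threshold in all 16 alternatives (log2 difference -6.90 to -1.63, adjusted p 0.00121 to 0.0274 in limma). Of all tested genes 1383 passed the threshold, 720 without a filter on low values, and 321 to 2952 when 1 library was left out. Hsph1 and Hspa8 were the 2 members past it, beside 408 of all 6398 tested genes called higher. Without the filter it was 1 member (Hsph1), beside 178 of 14325 genes. Under TPM scaling, quantile normalization, median scaling or the length and GC correction it was 4 members, beside 833, 540, 701 and 648 of all tested genes. When 1 library was left out it was 1 to 5 members, beside 38 to 1152 genes. It was 1 without WT replicate 1, WT replicate 2 or Lsm14b-KO replicate 3 (0.600% of all genes in that last fit). It was 5 without Lsm14b-KO replicate 1 (18.3% of all genes). These member counts only restate how the family was picked. The 36 other heat shock and co-chaperone genes tested gave 10 calls, beside 1383 of all 6398. Without the filter it was 5 of 57, beside 720 of all 14325. When 1 library was left out it was 1 to 19, beside 321 to 2952 of all genes. The members' median log2 difference of 1.01 became 1.66 under TPM scaling and 1.40 under quantile normalization, and 0.68 to 1.36 when 1 library was left out. That median also partly restates how the family was picked. Dnaja1 reversed to 0.31 under TPM scaling, where the median of all tested genes was 0.40. Counted only before the start, the 3-unit promoter form was found in 0 members. Of the 9 neighbouring pairs in the order of WT levels 5 were apart, and 7 when 1 WT library was left out. A range over fewer libraries cannot be wider, so that count does not show that the order depends on a library. The cause of the other changes was not tested. Fits that leave out 1 library or drop the filter also differ in the number of libraries or of genes, and the part of these numbers was not tested either.

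The labels number the replicates 1 to 3 in both genotypes. Deviations of same-numbered libraries correlated at 0.19, -0.13 and 0.018, and those of differently numbered ones at -0.28 to 0.31. Same-numbered libraries were thus no more alike, but whether the samples were collected in pairs cannot be told from these values. With the replicate block 1244 genes passed the threshold (353 higher, 891 lower), the same 2 members did, and of the other list genes 9 did, Dnaja2 having an adjusted p of 0.0544 in limma. Lsm14b had an adjusted p of 0.00788 with the block. The values of low-expressed members (Hspa4, Hspa4l, Hsf1, Bag3) may be limited by depth, which was not tested.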
